A study of Mesocricetus auratus with 11 samples.

Results

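Among 8929 genomic tiles of 1 kb measured in Syrian hamster (Mesocricetus auratus) cells, 428 (4.79%) were more methylated in the transformed fetal cell line MT2 than in primary fetal cells. They were chosen by their methylation in 4 of the 11 libraries. The mean of MT2 vehicle wells 1 and 2 had to exceed the mean of primary cells 1 and 2 by at least 25 percentage points, with both wells above both primary samples. A tile entered only if it held at least 3 CpGs with 10 or more reads in all 11 libraries, and its level is the percent of its summed reads that were methylated. The gain in those 4 libraries, and where the tiles lie, describe how they were chosen. The gain was then read and tested in the other 7 libraries, namely vehicle wells 3 and 4, primary cells 3 and 4, and the 3 wells treated with 5-aza-2'-deoxycytidine (5aCdR).

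DNA methylation at CpG sites is copied to the new strand after replication by the maintenance methyltransferase DNMT1, while DNMT3A and DNMT3B can place it on unmethylated sites. In transformed cells, losses over much of the genome commonly accompany gains at some CpG-rich sites that are unmethylated in normal cells. The cytidine analogue 5aCdR (decitabine) is incorporated into DNA, where it traps these enzymes, so methylation is diluted as treated cells divide. Reduced representation bisulfite sequencing reads the ends of restriction fragments cut at a CpG-containing motif, so a tile is sampled over a short stretch only. The median distance from the first to the last CpG read was 70 bp in the gained tiles and 69 bp over all tiles.

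The primary cells came from 4 female fetuses at gestation day 13.5. They were untreated, received 1 passage in culture, and were a mixture of stem, progenitor and differentiated cells of ectodermal and mesodermal origin. MT2 is a female line founded by 1 colony that had become morphologically transformed under benzo[a]pyrene, given at 5 µg/mL; it had bypassed senescence and was used near passage 28. For MT2, 4 wells received vehicle (0.05% DMSO) and 3 wells received 5 µM 5aCdR for 48 h. All were seeded from 1 frozen stock, so they are wells of 1 line and not independent lines. The p-values rest on 1 spread per tile, shared by these wells and the fetuses and moderated across tiles. Differences between MT2 and primary cells cannot be told apart from differences in cell mixture, time in culture or DMSO exposure. Libraries held 17834610 to 46148127 reads over listed CpGs, with a median of 20 to 27 reads per CpG. Reads carry no molecular identifiers, so reads per tile are not a number of molecules. No genome of these scaffolds was used here, and the tiles are given by scaffold and position without a gene or a sequence.

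The gain was present in the libraries that had not chosen the tiles, at a smaller size. Over the 428 tiles the mean level in the choosing libraries was 29.5% and 27.0% in primary cells 1 and 2 and 67.1% and 70.7% in vehicle wells 1 and 2, a difference of 40.6 points. In the other libraries it was 37.0% in primary 3, 36.6% in primary 4, 63.3% in vehicle 3 and 64.2% in vehicle 4. Both vehicle wells lay above both primary samples, and the gain was 26.9 points, between 26.3 and 27.6 over the pairs of libraries. This was 66.3% of the choosing gain. In the same libraries the mean was higher in MT2 in 383 of the 428 gained tiles and in 41.1% of all tiles.

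**Figure D1:**
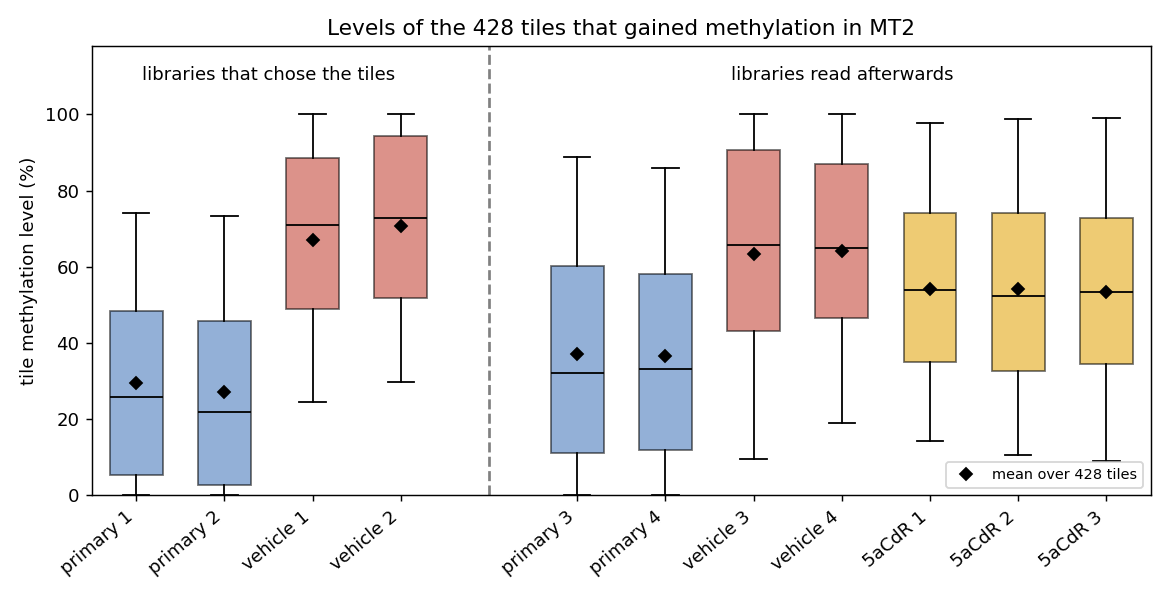
Methylation level (percent) of the 428 gained tiles in each of the 11 libraries, the 4 that chose the tiles left of the dashed line. Boxes span the quartiles with the median, whiskers the central 90% of tiles, and diamonds mark the mean. Mean levels were 36.6% and 37.0% in the primary cells not used for choosing, 63.3% and 64.2% in vehicle wells 3 and 4, and 53.3% to 54.3% in the 5aCdR wells.

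Tested tile by tile, 113 of the 428 gained tiles (26.4%) were called higher in vehicle 3 and 4 than in primary 3 and 4, where 2.5% of all tiles were called higher. The same test called 0 of the 428 lower, against 5.6% of all tiles. At an unadjusted p below 0.05, 220 gained tiles were higher (8.79% of all tiles) and 4 lower (13.4% of all tiles). A call was an adjusted p below 0.05 in a quasi-binomial model across all tiles with limma's moderation of the dispersion and Benjamini-Hochberg adjustment. Both vehicle wells lay above both primary samples in 299 gained tiles, against 18.1% of all tiles, and the means differed by at least 25 points in 216, against 4.54%. With 2 libraries per group, the number called rested on each of them. It was 10 without vehicle 3, 6 without vehicle 4, 14 without primary 3 and 20 without primary 4, each time with the lone library assumed to vary like the other groups. limma on tile logits called 39 of the gained tiles higher and 0 lower, of 111 and 59 over all tiles, and edgeR 5 and 0, of 15 and 28.

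Levels of the gained tiles were uneven between replicates. The median gap between vehicle 3 and vehicle 4 was 10.3 points in the gained tiles 4.21 points over all tiles, 7.44 points in tiles methylated to a like extent in MT2 and primary cells, and 10.4 points in tiles that had lost methylation in MT2. Between primary 3 and primary 4 it was 9.81 points, and the median range of the 3 5aCdR wells was 19.0 points. The gap between the vehicle wells exceeded 25 points in 20.1% of the gained tiles, 7.88% of all tiles, 10.7% of the tiles methylated in both and 15.9% of the lost tiles. The gaps between wells of 1 stock were about as large as those between fetuses.

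How far a tile had moved in the choosing libraries went with how much of the gain was seen in the others. In 199 tiles with a choosing gain of 25 to 35 points, the other libraries gave 43.1% in primary cells and 60.0% in vehicle wells, a gain of 16.9 points. In 131 tiles chosen at 35 to 50 points the gain was 24.95 points, and in 98 tiles chosen at 50 points or more it was 50.0 points, from 26.8% to 76.7%. In all, 214 tiles (50.0%) met the same criteria in libraries 3 and 4, where 4.38% of all tiles did. They were 54.7% of the 391 tiles that did so, and 44 of the 428 had a difference below 0, as had 43.5% of all tiles.

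**Figure D2:**
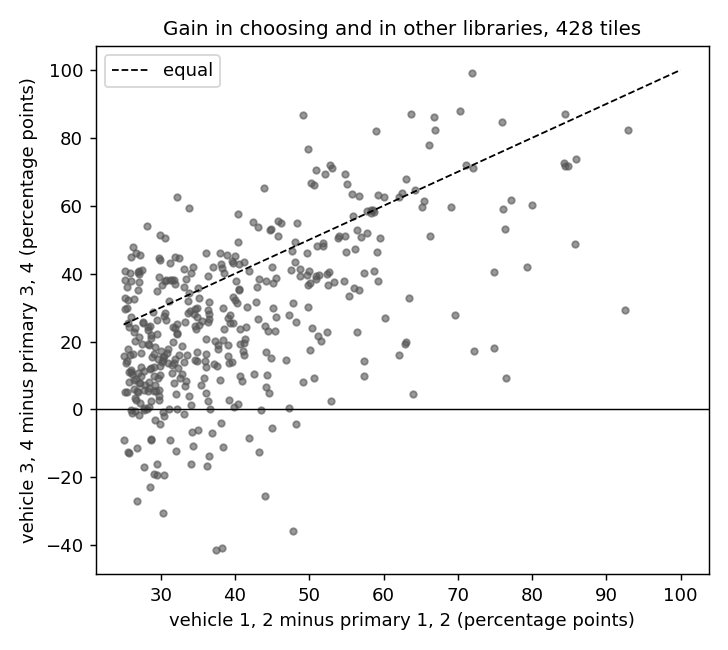
Gain (vehicle minus primary, percentage points) in the libraries that chose the tiles, on one axis, and in libraries 3 and 4, on the other, for each of the 428 gained tiles. Of these, 216 reached 25 points in libraries 3 and 4 and 44 lay below 0.

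The tiles on either side of the 25-point threshold, set side by side without a test, were mixed. The 3 members nearest above it, KB708161.1 from 12129001, KB708147.1 from 20513001 and KB708289.1 from 207001, differed by -9.02, 15.7 and 40.7 points in libraries 3 and 4. The 3 tiles nearest below it, KB708304.1 from 424001, KB708209.1 from 2884001 and KB708184.1 from 7381001, differed by -17.3, 22.4 and 5.86 points.

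The gained tiles were not all of 1 kind by their level in primary cells. In 81 tiles at under 5% in primary cells 1 and 2, which were unmethylated there, primary 3 and 4 had a mean of 6.71% and vehicle 3 and 4 of 36.2%. In 107 tiles at 5 to 20% the means were 22.3% and 53.3%. In 143 tiles at 20 to 50% they were 40.6% and 70.9%. In 97 tiles at 50% or more they were 72.4% and 87.8%, a gain of 15.4 points, where the other classes had 29.5 to 31.0 points.

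Gained tiles were scarcer where CpGs were dense. Of tiles whose CpGs had a median of at least 20 CpGs within 250 bp on either side, 53 had gained methylation, 1.91% of such tiles, against 5.25% to 6.57% in the classes of lower density. The dense gained tiles were at 14.7% in primary 3 and 4 and at 41.7% in vehicle 3 and 4, and their gain of 27.0 points was close to that of all gained tiles. Depth moved with the gain: it was 24.1 points in the gained tiles of lowest depth, at up to 156 reads per tile, and 28.7 points in those of highest depth, although the choosing gain was 40.7 and 39.6 points there. The part of depth in these values was not tested.

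In part of the gained tiles every CpG read was higher in MT2. Whether the CpGs of a tile moved together was not tested. Of the 1563 CpGs in the gained tiles, 75.5% had a higher mean in vehicle 3 and 4 than in primary 3 and 4, against 27.5% of the 40585 CpGs in all tiles. Every CpG of the tile was higher in 194 gained tiles (45.3%), against 6.92% of all tiles, and no CpG was higher in 15. The CpGs of a tile share reads and are not replicates. Within a gained tile the gain of its CpGs differed by a median of 47.4 points from the lowest to the highest.

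Tiles near the gained ones were described apart from the gained tiles themselves. The 32 other tiles adjacent to a gained tile had a mean difference of 6.44 points between vehicle 3 and 4 and primary 3 and 4, with a median of 2.79 points, and 71.9% were higher in MT2. At 2 to 10 kb the mean was 1.07 points and the median 0.538 points in 84 tiles, and at 11 to 50 kb the mean was -1.93 points and the median 0 in 298 tiles. The 5341 tiles over 200 kb from a gained tile on the same scaffold had a mean of -4.01 points and a median of 0, and 38.4% were higher. No test was made of these differences. Of 423 groups of gained tiles with no more than 5 kb between neighbours, 418 held a single tile and 5 held 2. Only 36 measured tiles lay adjacent to another gained tile and 94 at 2 to 10 kb, so long runs could hardly have been seen.

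After 5aCdR, the level of the gained tiles lay between those of vehicle-treated MT2 and primary cells. The mean was lower than in vehicle 3 and 4 in 329 of the 428 tiles, against 54.5% of all tiles and 78.9% of the tiles methylated to a like extent in MT2 and primary cells. It was lower at every CpG of the tile in 137 (32.0%), against 14.6% of all tiles and 32.7% of those methylated in both. Their mean level was 54.3%, 54.1% and 53.3% in the 3 treated wells, 53.9% ± 0.511 (SD, n = 3). This was 9.89 points below vehicle 3 and 4 and 17.1 points above primary 3 and 4, and no treated well overlapped either group. Per well, 64.7%, 64.0% and 61.2% of the 26.9-point gain remained, 63.3% ± 1.90 (SD, n = 3).

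The size of the decrease was near that of other methylated tiles. Relative to vehicle 3 and 4, the mean level of the gained tiles was lower by 14.9%, 15.2% and 16.4% in the 3 wells, a relative change of -15.5% ± 0.802 (SD, n = 3). In 1688 tiles that were methylated to a like extent in MT2 and primary cells (at least 25% in vehicle 1 and 2 and within 10 points of primary 1 and 2), the level went from 69.3% to 60.3% ± 0.666, a relative change of -12.9% ± 0.961 (SD, n = 3). In the 839 tiles that had lost methylation in MT2 by the mirrored criteria it was -8.67%, and over all tiles -12.4% ± 0.683. No test was made of these differences between sets of tiles.

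At matched level in vehicle 1 and 2, the gained tiles did not stand to 1 side of the tiles that kept their methylation. At 25 to 50% the relative change was -15.6% ± 2.65 in 107 gained tiles and -17.5% ± 1.83 in 354 kept tiles. At 50 to 75% it was -18.8% ± 1.22 in 128 gained and -16.1% ± 0.84 in 536 kept tiles. At 75% or more it was -14.0% ± 1.48 in 193 gained and -10.5% ± 0.98 in 798 kept tiles (SD over the 3 treated wells). In the lowest class the difference was smaller than the SD of the gained tiles, and in the other classes the gained tiles had the larger relative decrease. The classes were matched in libraries that chose the gained tiles. In vehicle 3 and 4 the gained tiles were lower than the kept tiles in each class. From the lowest class up, they were at 32.4% against 38.3%, 58.7% against 60.8% and 84.5% against 88.7%.

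**Figure D3:**
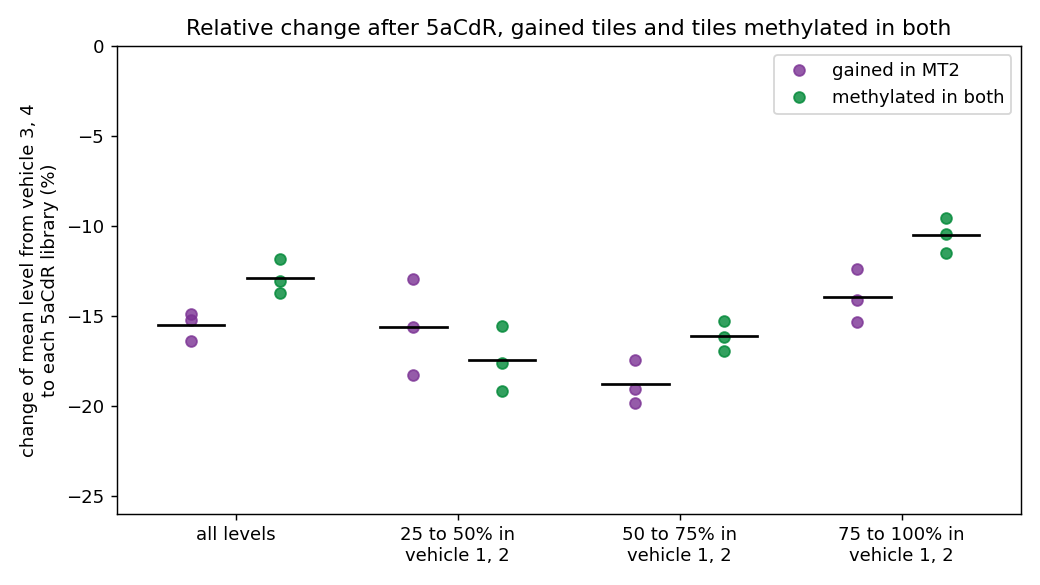
Relative change in mean methylation level from vehicle 3 and 4 to 5aCdR (percent) in gained tiles and in tiles that kept their methylation, by their level in vehicle 1 and 2; points are the 3 treated wells and short lines their mean. The means by class lay between -18.8% and -10.5%.

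No single gained tile passed the test for a fall after 5aCdR. The quasi-binomial test with limma moderation called 0 of 428 lower, where 0.213% of all tiles (19) were called lower and 0 were called higher. At an unadjusted p below 0.05, 82 gained tiles (19.2%) were lower, against 9.35% of all tiles and 20.7% of kept tiles. At the same threshold 7 gained tiles were higher, against 1.04% of all tiles and 14 of the 1688 kept tiles. Limma on tile logits and edgeR each called 0 of the 428. All 3 treated wells lay below both vehicle wells in 136 gained tiles, 31.8% of them, against 17.0% of all tiles and 32.5% of the tiles that kept their methylation. They lay above both in 20, against 4.33% of all tiles. In simulated data of this depth, changes were placed only in tiles of middle level, with a spread drawn from the fit across tiles. There the same test recovered 17% of tiles changed by 30 points and 51% of those changed by 50 points. The gained tiles were more uneven than all tiles, so this is not their own recovery rate. In the data, 61 gained tiles had a mean lower by 25 points or more, as had 4.28% of all tiles.

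Against primary cells, 114 gained tiles (26.6%) were called higher after 5aCdR, where 2.77% of all tiles were, and 2 were called lower, where 12.7% of all tiles were. All 3 treated wells lay above both primary samples in 215 gained tiles, against 10.8% of all tiles. The number called was 57 without vehicle 3, which entered only through the shared dispersion, 31 without primary 3 and 21 without primary 4; limma on tile logits called 23, of 85 over all tiles, and edgeR 5, of 27. This comparison shares primary 3 and 4 with the comparison of vehicle and primary cells, and vehicle 3 and 4 are shared by the other two.

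The share of the gain that remained, not tested between kinds of tile, was 86.4% ± 3.45 in tiles at under 5% in primary cells 1 and 2, 67.8% at 5 to 20%, 60.2% at 20 to 50%, and 25.2% ± 14.9 in tiles at 50% or more (SD, n = 3). The relative change from vehicle was more alike, at -11.1%, -18.7%, -17.0% and -13.1%. By choosing gain, the share was 47.9% at 25 to 35 points, 58.1% at 35 to 50 points and 77.4% ± 4.4 at 50 points or more, with relative changes of -14.7%, -17.5% and -14.7%.

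**Figure D4:**
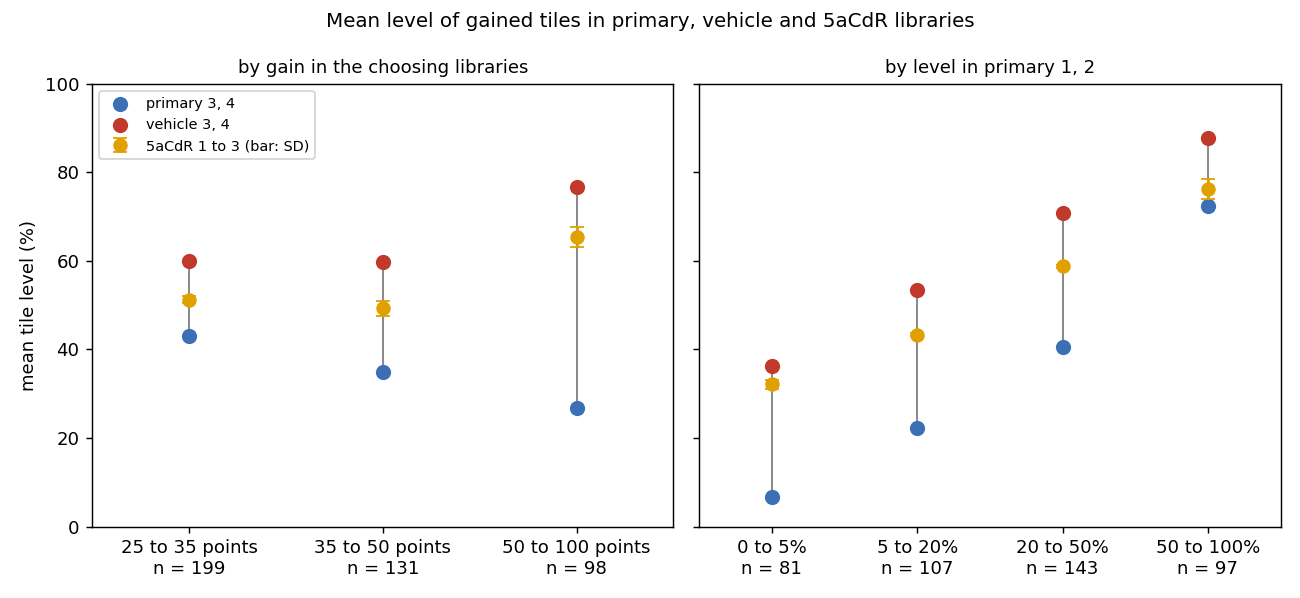
Mean methylation level (percent) of the gained tiles in primary 3 and 4, vehicle 3 and 4 and the 3 5aCdR wells (bar: SD), by class of choosing gain on the left and of level in primary 1 and 2 on the right. In each class the 5aCdR mean lay between the others; for the 81 tiles at under 5% the means were 6.71%, 36.2% and 32.2%.

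The number of CpGs read in a tile moved with the decrease. In 53 gained tiles with 5 or more CpGs the mean level went from 60.1% in vehicle 3 and 4 to 46.0% after 5aCdR, with 30.4% in primary 3 and 4. The 3 wells had relative changes of -27.2%, -21.7% and -21.4%, and 52.5% of the gain remained. In gained tiles with 3 and with 4 CpGs the relative change was -14.5% and -14.3%. In 352 tiles of 5 or more CpGs that kept their methylation it was -11.5% ± 1.40. These differences were not tested. Dense gained tiles, with at least 20 CpGs within 250 bp on either side, had a relative change of -18.5% ± 3.75 (SD, n = 3).

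Among the 216 gained tiles whose gain was at least 25 points in libraries 3 and 4 as well, the mean level was 25.3% in primary 3 and 4, 70.9% in vehicle 3 and 4 and 56.7% after 5aCdR. Vehicle 3 and 4 and primary 3 and 4 chose this subset, so its decrease and its height above primary cells are both overstated. The median share of the gain remaining was 70.1%, with quartiles of 46.7% and 86.4%. The 5aCdR mean lay below the primary mean in 5 tiles. Less than 50% of the gain remained in another 54 tiles, 50 to 100% in 128, and 100% or more in 29. The 5aCdR mean was within 10 points of the primary mean, or below it, in 20 tiles, and within 10 points of the vehicle mean, or above it, in 84. All 3 treated wells lay above both primary samples in 161 of the 216, against 10.8% of all tiles. They lay below both vehicle wells in 90, against 17.0% of all tiles, and both held in 62. The choice of the subset raises these counts.

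The 6 called tiles with the largest gain in libraries 3 and 4 are given first; their primary levels there were 0% to 25.3% and their vehicle levels 77.6% to 100%. At KB708183.1 from 11775001 to 11776000, primary 3 and 4 were at 0% and 1.96% and vehicle 3 and 4 both at 100%. The treated wells were at 100%, 32.1% and 100% (adjusted p = 0.0302 for vehicle against primary and 0.653 for 5aCdR against vehicle, quasi-binomial test with limma). Only 1 of the 3 treated wells was low, and its 3 CpGs, at 11775831, 11775834 and 11775838, were at 0%, 44.4% and 52.9%.

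At KB708169.1 from 4952001 to 4953000, primary cells were at 0% and 1.98%, vehicle at 100% and 77.6%, and 5aCdR at 47.1%, 69.3% and 28.3%. The treated wells here lay below both vehicle wells and above both primary samples (adjusted p = 0.424 against vehicle and 0.00988 against primary, quasi-binomial test with limma). At KB708295.1 from 1568001 to 1569000, primary cells were at 10.3% and 15.3%, vehicle at 100% and 98.1%, and 5aCdR at 55.7%, 92.1% and 75.2%. At KB708134.1 from 22988001 to 22989000, primary cells were at 6.42% and 8.37%, vehicle at 97.9% and 90.6%, and 5aCdR at 98.3%, 69.7% and 43.8%. The treated wells ran from the vehicle level to below the middle of the gain. In the choosing libraries the gain of this tile was 49.1 points, against 86.8 points here, and with the roles of the libraries swapped its adjusted p was 0.402 (quasi-binomial test with limma). At KB708159.1 from 12091001 to 12092000, primary cells were at 11.7% and 9.33%, vehicle at 100% and 94.9%, and 5aCdR at 80.8%, 92.7% and 18.3%. At the small contig APMT01215879.1 from 4001 to 5000, primary cells were at 25.3% and 0.441%, vehicle wells both at 100% and 5aCdR at 86.2%, 99.1% and 70.6%. Primary 1 and 2 were at 17.3% and 54.3% there, and the choosing gain was 63.8 points. Vehicle 3 had 11 to 32 reads per CpG in this tile, 11 to 13 at KB708183.1, 12 to 15 at KB708169.1 and 11 to 27 at KB708159.1. It had 25 to 75 at KB708295.1 and 37 to 88 at KB708134.1. In these 6 tiles the adjusted p for vehicle against primary was 0.00279 to 0.0473 (quasi-binomial test with limma). The tiles were picked by this call and by their gain in the same libraries. Values below 0.05 were thus fixed by the choice, and the gains are overstated. For 5aCdR against vehicle the adjusted p was 0.305 to 0.653 (same test). With the roles swapped, the tiles at KB708183.1 (adjusted p = 0.0696) and KB708159.1 (0.111) also lost the call (quasi-binomial test with limma). That test reads vehicle 1 and 2 and primary 1 and 2, which chose these tiles, so a call kept there is no separate evidence. In the 7 libraries of the main fit, limma on logits called 2 of the 6 and edgeR 0. Without vehicle 3, vehicle 4 or primary 4 the test called 0 of the 6, and without primary 3 it called 1.

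**Figure D5:**
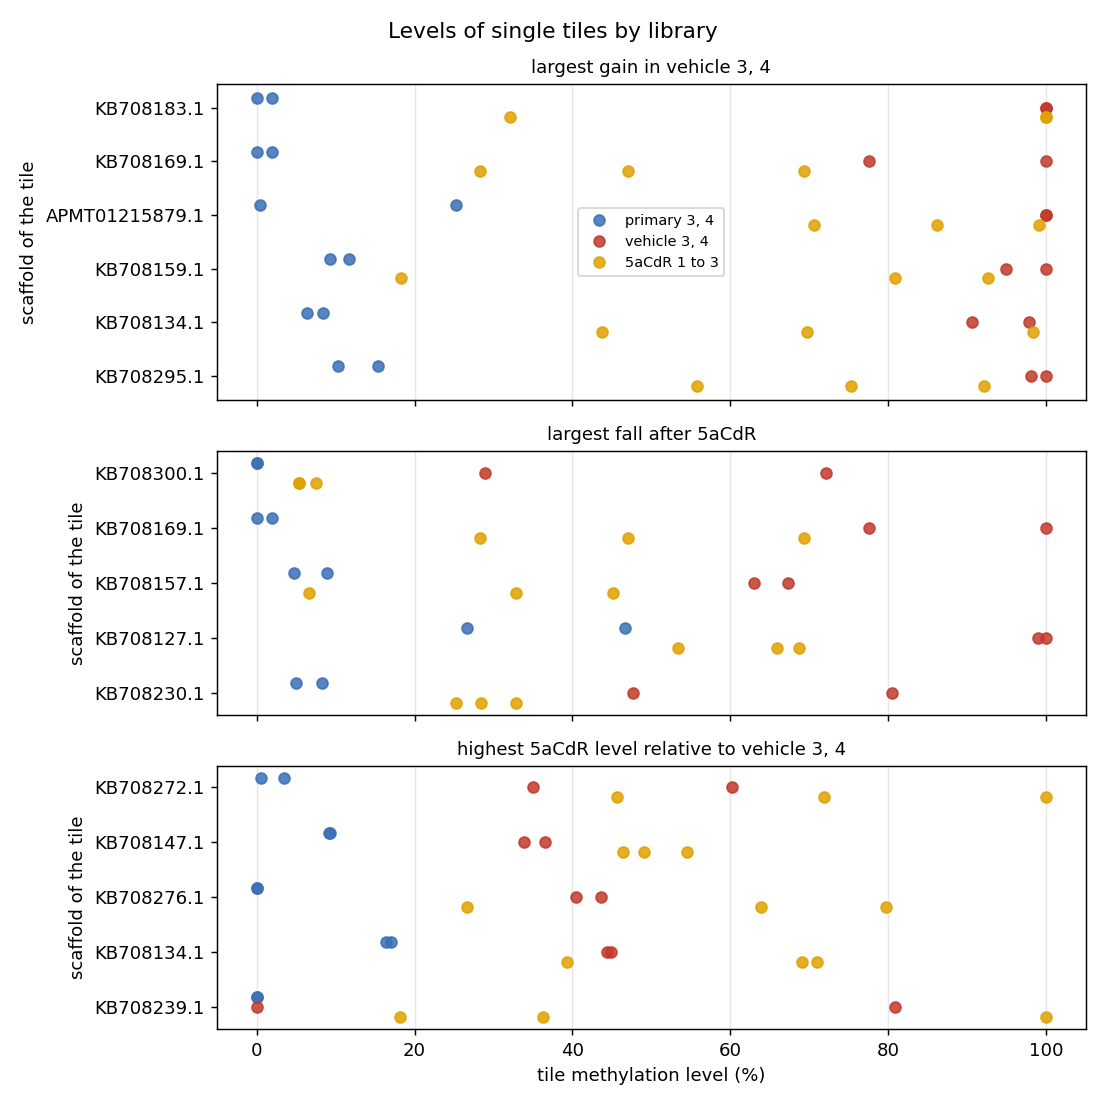
Methylation level (percent) in each of the 7 libraries that did not choose the tiles, for the named tiles with the largest gain, the largest decrease and the highest level after 5aCdR relative to vehicle. Points are single libraries; in the tiles of largest gain the primary samples lie at 0% to 25.3% and the vehicle wells at 77.6% to 100%.

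The largest decreases after 5aCdR among tiles that were called for the gain, without overlap of libraries, are given as a description, since none passed the test. At KB708300.1 from 901001 to 902000, both primary samples were at 0%, vehicle 3 and 4 at 72.1% and 28.9%, and the treated wells at 5.38%, 7.56% and 5.35%. This tile came back nearly to the primary level, with 12.1% of its gain remaining (adjusted p = 0.105 for 5aCdR against vehicle, quasi-binomial test with limma). All 5 of its CpGs, from 901591 to 901633, were at 0% in primary 3 and 4, at 18.8% to 70.8% in vehicle and at 2.199% to 9.17% after 5aCdR. Vehicle 3 had only 10 to 18 reads per CpG there, and vehicle 1 and 2 were at 23.9% and 38.1%.

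At KB708127.1 from 54027001 to 54028000, primary cells were at 46.6% and 26.6%, vehicle at 100% and 99.0%, and 5aCdR at 68.7%, 65.9% and 53.4%. The 3 treated wells lay between the groups (adjusted p = 0.0907 against vehicle and 0.0924 against primary, quasi-binomial test with limma). At KB708230.1 from 3199001 to 3200000, primary cells were at 4.97% and 8.21%, vehicle at 80.4% and 47.7%, and 5aCdR at 28.4%, 32.8% and 25.3%. At KB708157.1 from 487001 to 488000, which held 5 CpGs, primary cells were at 8.89% and 4.76%, vehicle at 67.3% and 63.0%, and 5aCdR at 32.9%, 6.59% and 45.1%. One treated well there was within the primary range and the other two were not.

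At the other end, some tiles were as methylated or more after 5aCdR than in the vehicle wells that had not chosen the tiles. They were picked by their ratio to those same wells, so the difference is overstated. At KB708147.1 from 5134001 to 5135000, primary cells were at 9.20% and 9.27%, vehicle at 33.8% and 36.6%, and 5aCdR at 49.1%, 46.4% and 54.5%. Its 3 CpGs differed in pattern. The CpG at 5134725 was at or near 0% in every library. The CpG at 5134799 was at 6.02% in primary cells, 98.7% in vehicle and 86.5% after 5aCdR, while that at 5134793 was at 24.8%, 28.0% and 91.2%. The higher level of the tile after treatment thus rested on 1 CpG.

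At KB708134.1 from 4572001 to 4573000, primary cells were at 16.4% and 17.0%, vehicle at 44.9% and 44.4%, and 5aCdR at 39.3%, 71.0% and 69.1%. At KB708276.1 from 4130001 to 4131000, primary cells were both at 0%, vehicle at 43.7% and 40.4%, and 5aCdR at 26.7%, 63.9% and 79.7%. Treated wells fell on both sides of these vehicle wells in these tiles. At KB708272.1 from 2508001 to 2509000, primary cells were at 3.47% and 0.597%, vehicle at 60.2% and 34.99%, and 5aCdR at 45.6%, 100% and 71.8%. At KB708239.1 from 4695001 to 4696000, primary cells were both at 0%, vehicle at 0% and 80.8%, and 5aCdR at 36.3%, 18.2% and 100%, so that the groups overlapped.

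Of the 5 pairs of gained tiles close to each other, the pair at KB708136.1 was called higher in both tiles in libraries 3 and 4. From 24873001 to 24874000, primary cells were at 65.9% and 43.2%, vehicle at 100% and 99.6%, and 5aCdR at 97.5%, 91.1% and 91.8%. From 24877001 to 24878000, primary cells were at 15.8% and 10.8%, vehicle at 69.8% and 63.3%, and 5aCdR at 55.6%, 64.0% and 58.8%. Most of the gain in the first tile lay at the CpG at 24873137, at 11.9% in primary cells, 99.5% in vehicle and 93.5% after 5aCdR. The pair at KB708134.1, 22418001 to 22420000, did not keep its gain, with 90.7% and 82.0% in primary 3 and 4 and 93.3% and 72.9% in vehicle 3 and 4 for its first and second tile.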

How the data were processed

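Reduced representation bisulfite libraries of 4 primary samples, 4 vehicle wells and 3 5aCdR wells were used; the labels' protocol names 4 plates with 5aCdR. The submitters' processing notes name methylKit 1.10.0 in R 3.6.1, Bismark 0.22.1 with Trim Galore 0.5.0, Bowtie2, and bcl2fastq 2.20.0.42; settings, genome build and treatment of PCR duplicates are not given in the sources used here. Per the file headers, the deposited coverage is a count of reads per strand of a CpG, and the C and T levels are a percent of these reads. Positions under 10 reads are not listed in the deposited files, so a strand of lower depth is missing from a sum.

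Methylated reads were recovered as coverage times percent C, rounded, and strands were summed per CpG. Tiles of 1000 bp needed 3 CpGs of at least 10 reads in all 11 libraries. Summed reads of 7 libraries were fitted by quasi-binomial logistic regression with 1 coefficient per group. The dispersion (4 residual degrees of freedom) was moderated with limma's prior (6.02 degrees of freedom, prior dispersion 10.1) and not allowed below 1. F tests on the deviance were adjusted by Benjamini-Hochberg over 8929 tiles. The members, lists and rules were chosen with earlier results of these data known.

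Tiles were named by rules: the 6 largest gains among members called higher without overlap of vehicle 3 and 4 and primary 3 and 4; among members with a gain of at least 25 points in these libraries, the 5 largest decreases among those called lower after 5aCdR, and the 5 highest ratios of 5aCdR to vehicle with all treated wells above both primary samples; the 3 nearest tiles on each side of the threshold; and the longest runs. No tile met the rule for decreases, so the 5 largest decreases without overlap among members called for the gain were taken after their values were seen; the KB708169.1 tile met this too.

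On simulated data, 100 tiles of middle level were changed by 50 points and another 100 by 30 points. Of those changed by 50 points, 35% were recovered for vehicle against primary, 51% for 5aCdR against vehicle and 68% for 5aCdR against primary. There were 2, 5 and 7 false calls among the tiles left unchanged, of 8929 in all. Python 3.11.15 with numpy 2.4.6, scipy 1.17.1, pandas 2.3.3 and matplotlib 3.10.9, and edgeR 4.0.16 and limma 3.58.1 under R 4.3.3, served for the computations. Alternatives were other minimum reads, CpGs per tile, tile sizes, thresholds and tests, swapped roles of the libraries, a replicate block, and leaving out libraries or scaffolds.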

Additional observations from a re-analysis of the deposited data

Results flagged for a closer look

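In groups of 4 libraries, the named tiles were searched for a library whose gap to the nearest other, divided by the range of the group, exceeded Dixon's critical value for 4 samples. Of 32 groups 7 did, and chance gives about 1 in 20 for values that were not selected. These tiles were chosen and named by levels of the same libraries, so the number cannot be read against that rate.

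In 4 of the 7 the other libraries were equal or nearly so, and the gap was small. Vehicle 2 was at 99.2% at APMT01215879.1 from 4001, where the other vehicle wells were at 100%, and vehicle 4 was at 98.1% at KB708295.1 from 1568001, where the others were at 100%. Primary 4 was at 1.96% at KB708183.1 from 11775001 and primary 2 at 0.673% at KB708300.1 from 901001, where the other primary samples were at 0%. The ratio was 1.0 in each of these.

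Primary 1 was at 6.29% at KB708147.1 from 5134001, below the others at 9.09% to 9.27%, a ratio of 0.941. The gaps of the remaining 2 were larger. At KB708272.1 from 2508001 primary 1 was at 42.3%, and the other primary samples at 0.597% to 6.48%, a ratio of 0.859. At KB708230.1 from 3199001 vehicle 3 was at 80.4% and the other wells at 47.7% to 53.0%, a ratio of 0.837.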

How the results depend on the processing

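The alternatives left the mean gain, the share remaining and the relative change with the signs given, and no value reversed. At 20 reads per CpG (76 members), 40 members were called higher in vehicle than in primary cells, 1 lower after 5aCdR and 39 higher after 5aCdR than in primary cells, the gain was 31.0 points, the share remaining 73.8% and the relative change minus that of kept tiles -1.56 points, against -2.62 in the fit as reported. With 5 CpGs per tile (53 members) these were 20, 0, 17, 29.7, 52.5% and -12.01. With swapped roles (391 members) the gain was 29.4, the share 69.8% and the difference -1.47, and at 35 points (229 members) the gain was 35.7 and the share 69.7%. Without dispersion 359, 274 and 301 members were called, with limma on logits 39, 0 and 23, with edgeR 5, 0 and 5, and with only the groups compared 1 member was lower after 5aCdR. Leaving out 1 library gave 6 to 126, 0 to 0 and 21 to 122 calls, a gain of 21.2 to 27.4 points, a share of 58.2% to 64.4% and a difference of -3.20 to -1.34. Of 371 values of named tiles under alternatives, 73 lost and 7 gained a call. Correlations of the deviations of same-numbered libraries were -0.007 to 0.004 for vehicle with primary and -0.030 to -0.003 for vehicle with 5aCdR. None was over 0.1, and the main fit used no pairing by number. Correlations over all tiles do not show how the libraries were prepared or batched. The replicate block called 106, 0 and 29 members, and with a prior of its own 0, 0 and 0. The prior dispersion was 10.1 times the binomial, with 2 libraries in each of the vehicle and primary groups.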

Other observations

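The gained tiles lay on 167 of the 670 scaffolds with a tile, and 72 of these scaffolds held 1. The most were on KB708147.1, with 20 of 361 tiles (5.54%), where MT2 wells had a raised share of reads (median log2 ratio of MT2 to primary 0.36). Their gain in libraries 3 and 4 was 36.3 points and their difference between 5aCdR and vehicle -5.09 points, against 26.9 and -9.89 over all gained tiles. On KB708184.1, whose read share was also raised (median log2 ratio 0.47), 7 of 126 tiles were gained, with 11.2 points. The part of read share in these levels was not tested. Over all gained tiles, 12.1% had a read share more than 1.5 times that of primary cells, against 16.4% of all tiles.

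By share of their tiles, KB708262.1 (5 of 34, 14.7%) and KB708134.1 (12 of 87, 13.8%) stood highest among scaffolds with at least 5 gained tiles, against 4.79% overall. The gained tiles of KB708262.1 were at a difference of -22.4 points after 5aCdR and those of KB708217.1 (5 of 108) at 5.49 points, each a mean over few tiles with no test.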
